A study of Mus musculus with 2 samples.

Results

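The genes described here encode the receptors for acetylcholine, serotonin, adrenaline and noradrenaline, dopamine and histamine. Members were taken by symbol from the platform annotation, as probe sets that carry 1 gene symbol of the form Chrna to Chrng, Chrm, Htr, Adra, Adrb, Drd or Hrh. This gave 46 genes of 22296 named genes, with 477 probe sets (short exonic target regions, each read out by a few probes). They fall into 6 families, with 16 nicotinic acetylcholine receptor subunits, 5 muscarinic acetylcholine receptors, 14 serotonin receptors, 2 adrenergic receptors, 5 dopamine receptors and 4 histamine receptors. Only Adra1b and Adra2c of the adrenergic family had such probe sets, and the other adrenergic receptors were not analysed here.

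The RNA came from mouse hypothalamic neurons that make agouti-related peptide (AgRP neurons), sorted by FACS. There were 2 arrays, 1 from FoxO1 KO cells and 1 from cells with a heterozygous FoxO1 KO, which serves as the control and so carries a FoxO1 mutation too. Both groups are of mixed genetic background, and the housing notes name littermates matched for age and sex with free access to food. The sources used here do not give the driver of the deletion, the age of the mice, their number per array or whether they were pooled.

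AgRP neurons promote feeding, and FoxO1 is a forkhead transcription factor held out of the nucleus when insulin signals. Monoamines and acetylcholine reach the arcuate nucleus largely from neurons elsewhere in the brain, and their receptors set how excitable the target neurons are. Nicotinic receptors and the 5-HT3 serotonin receptor are ion channels made of several subunits. The others are G protein-coupled receptors, which act through Gq and phospholipase C, through Gi and a fall in cyclic AMP, or through Gs and a rise in cyclic AMP. Serotonin lowers food intake, in part by inhibiting AgRP neurons through the 5-HT1B receptor and by exciting neighbouring POMC neurons through the 5-HT2C receptor.

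A single array per genotype allows no test, so every difference below describes these 2 arrays. Values are RMA values on the log2 scale, and differences are KO minus heterozygous. Probe sets entered with a mean over the arrays of 5.86 or more, a floor equal to the median of that mean across the whole table. A gene with 3 or more such probe sets was evaluated, and its difference is the median over them. The SD beside a difference is over the probe sets of that gene on 1 pair of arrays and does not measure the spread between mice. A gene's level on an array is the median of the same probe sets there, so a gap between levels can deviate from the difference. Of the members' probe sets 284 of 477 (59.5%) were at or above the floor, against 67.8% of all probe sets with 1 symbol. Of the 46 genes 43 were evaluated, and Chrna3, Chrm3 and Htr1d were not, with 2 probe sets at or above the floor each. The floor is not a detection limit, so an evaluated gene need not be expressed in these cells.

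Foxo1 stood at 7.46 on the KO array against 7.98 on the heterozygous array (difference -0.48, SD 0.53, 8 of 8 probe sets lower), and it is not known here which of its probe sets fall within the deletion. Agrp differed by 0.27 and Npy by 0.14, and both were bright on both arrays. The 10 AgRP neuron genes had a median of 0.27, with 8 above 0. Markers of some other cells differed between the arrays. All 9 evaluated mature oligodendrocyte genes were below 0 (median -1.46, 6 of them at least 2-fold lower), as were all 8 oligodendrocyte precursor genes (median -0.53). Medians were -0.19 over 10 astrocyte and tanycyte genes, -0.30 over 6 vessel genes and -0.13 over 11 genes of other hypothalamic neurons. Of these last, the glutamate transporter gene Slc17a6 and the oxytocin gene Oxt (-1.01) were past the 2-fold rule, on the lower side. Slc17a6 stood at -4.29 (SD 2.32, levels of 5.40 on the KO array against 9.11), the lowest of all 16639 evaluated genes. Gpr17, named in the title of the series, was 4.28-fold lower. In a sorted pool, fewer cells of a type and less RNA per cell cannot be told apart. The part of these markers in the receptor values below was not tested.

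No receptor gene was 2-fold apart between the arrays. The rule for a 2-fold call asked for a difference of 1 or more in size, shared in direction by 75% or more of the probe sets. Of the 43 evaluated members 0 were higher and 0 were lower under this rule, against a background of 1.13% and 1.12% of 16639 evaluated genes, or 188 and 186 genes. At such shares a set of this size holds few calls, so the count of 0 is near the background. The members' median difference was -0.06, with quartiles of -0.23 and 0.10, beside a median of -0.11 and quartiles of -0.29 and 0.09 over all genes. Of the members 23 lay below 0 and 20 above, or 53.5% below against 65.2% over all genes. Over single probe sets the shares were alike, with 57.7% of the members' below 0 against 57.4% of all (medians -0.10 and -0.11). Differences under 0.3 in size were found for 36 of 43 members (83.7%) and for 64.3% of all genes. The extremes were Chrna4 at -0.84 and Htr2b at 0.47. With no floor Chrna4 had the same value over 12 probe sets. All 10 Htr2b probe sets were at or above the floor, so omission of the floor could not change its value. For 10 of the 43 members, with differences of -0.24 to 0.21, the direction turned with no floor; these were Chrna5, Chrna7, Chrna10, Chrnb3, Chrnd, Chrng, Chrm2, Htr1f, Htr4 and Htr7.

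**Figure D1:**
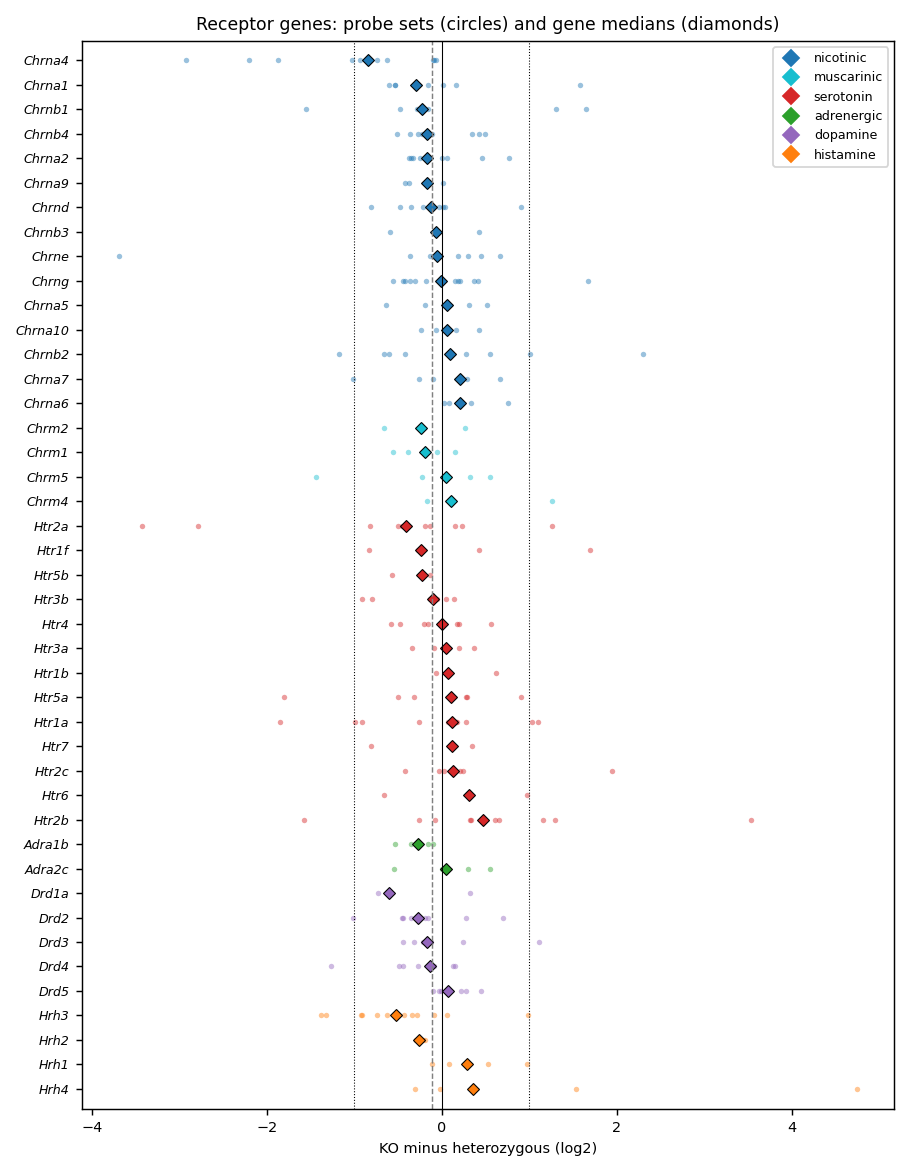
Differences (KO minus heterozygous, log2) of the 43 evaluated receptor genes by family; circles are probe sets at or above the floor, diamonds gene medians, the dashed line is the median of all genes (-0.11) and dotted lines mark 2-fold. All diamonds lie between -0.84 and 0.47, while single probe sets reach from -3.70 to 4.75.

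Glutamate, GABA and glycine receptor genes, with the metabotropic (G protein-coupled) ones included, served as another receptor group. Under the same rule 0 of 46 evaluated genes were higher and 2 were lower, the metabotropic glutamate receptor Grm5 and the kainate receptor subunit Grik3. Their median was -0.14, with a range of -1.93 to 0.80. They had a median of 14 probe sets per gene against 6 for the monoamine and acetylcholine receptors, whose range was -0.84 to 0.47. No test of the difference between the groups was made.

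**Figure D2:**
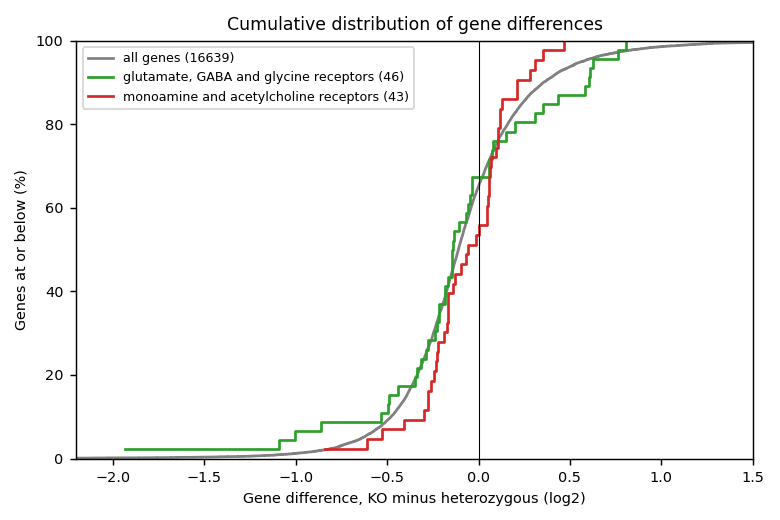
Cumulative share of genes (%) at or below each gene difference (KO minus heterozygous, log2) for all 16639 genes, 46 glutamate, GABA and glycine receptor genes and 43 monoamine and acetylcholine receptor genes. The receptor genes described here span -0.84 to 0.47 and have no value beyond 2-fold.

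Upstream sequence was compared for the members as a whole. RefSeq promoter entries (build GRCm38.p6) were found for 37 of the 46 members, 46 entries in all, and the 250 bases before each start were searched on both strands. The FoxO consensus GTAAACA was in 0 of 46, against 3.17% of all 32851 entries, and the shorter forkhead core TAAACA, which GTAAACA contains, was in 0 of 46, against 12.0%. The GC box GGGCGG was in 22 of 46 (47.8%), against 32.7% of all entries. Windows of the same gene can overlap, as some of Hrh1 and Hrh2 did, so the same GC box can be counted again. The median GC content was 59.4% for members and 52.4% for all entries. A match or its absence here describes letters in this window only. The sequences of Chrna4 and Hrh3, the members with the lowest differences among those with at least 10 probe sets, and of Htr2b, the member with the highest difference, are shown (Drd1a, at -0.61 on 3 probe sets, is not) to set GC-rich against AT-rich starts; capitals mark GC boxes on either strand, and each is written 5′ to 3′ on the strand of its gene. They lie at chr2:181039178-181039427 (minus strand), chr2:180104408-180104657 (minus strand) and chr1:86111981-86112230 (minus strand).
Chrna4: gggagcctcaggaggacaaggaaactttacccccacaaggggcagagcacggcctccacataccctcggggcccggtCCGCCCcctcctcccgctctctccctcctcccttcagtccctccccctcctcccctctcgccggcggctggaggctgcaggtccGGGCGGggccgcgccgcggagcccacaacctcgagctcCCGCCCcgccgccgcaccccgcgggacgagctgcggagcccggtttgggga
Hrh3: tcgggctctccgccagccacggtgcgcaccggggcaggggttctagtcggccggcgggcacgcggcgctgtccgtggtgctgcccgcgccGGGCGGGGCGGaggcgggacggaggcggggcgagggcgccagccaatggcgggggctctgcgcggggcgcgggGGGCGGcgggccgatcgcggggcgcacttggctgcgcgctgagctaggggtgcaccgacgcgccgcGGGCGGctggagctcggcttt
Htr2b: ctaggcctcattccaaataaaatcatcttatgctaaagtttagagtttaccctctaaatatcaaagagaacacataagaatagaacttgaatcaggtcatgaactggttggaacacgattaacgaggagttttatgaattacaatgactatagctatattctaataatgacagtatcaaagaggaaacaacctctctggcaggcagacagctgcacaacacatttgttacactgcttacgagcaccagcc
The Chrna4 window held 3 GC boxes at 74.4% GC, the Hrh3 window 4 at 80.8% GC, and the Htr2b window 0 at 37.6% GC. Whether GC content goes with the difference was not tested, and these 3 windows do not show it. Hrh1, at 0.28, had windows from 49.6% to 78.4% GC, and that of Htr2a, at -0.41, was at 52.8%.

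Nicotinic subunits form pentameric cation channels that acetylcholine opens. Of the 16 subunit genes 15 were evaluated, with a median of -0.07, 5 above 0 and 10 below (66.7%, against 65.2% of all genes). The lowest was Chrna4, the alpha4 subunit, which with beta2 makes the main high-affinity nicotine receptor of the brain. Its difference was -0.84 (SD 0.98, 1.79-fold lower, levels of 7.08 on the KO array against 7.80 on the heterozygous array), with 10 of 10 probe sets lower. Over all genes 347 (2.09%) had a difference as low or lower, and among the 8543 genes with at least 10 probe sets 65 (0.761%) had every probe set lower. Chrna4 was picked as the lowest of the members, so these shares do not measure how unusual it is. Under a 1.5-fold rule Chrna4 was the 1 member called lower and 0 members were called higher, against 4.90% and 3.28% of all genes, so this count too is near or under the background.

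The 10 Chrna4 probe sets did not share 1 size of difference. The 3 lowest read 4.54 on the KO array against 7.47 on the heterozygous array, 5.32 against 7.52, and 5.65 against 7.52, so their KO values lay under the floor. These 3 passed the floor through the heterozygous array alone. A middle group of 4 read 7.21 against 8.24, 7.85 against 8.79, 8.07 against 8.81 and 6.95 against 7.58. The last 3 were close on the arrays, at 7.99 against 8.09, 7.93 against 8.02 and 6.82 against 6.89. Both probe sets under the floor were lower on the KO array too, by -1.05 and -0.05. With the mean over probe sets the gene's difference was -1.06, which passes the 2-fold rule. Among the alternatives that kept that rule, this was the 1 call of a member.

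The partners of alpha4 were closer to 0. Chrnb2, the beta2 subunit, stood at 0.10 (SD 1.05), higher in 5 of 9 probe sets, and its probe sets ran from -1.17 (6.52 on the KO array against 7.69) to 2.30 (7.81 against 5.51). Chrna5, an accessory subunit of alpha4-beta2 channels, stood at 0.06 (SD 0.52), with 2 of 4 probe sets higher, and at -0.35 with no floor, with 6 of 9 lower. The brightest Chrnb2 probe set read 10.8 on the KO array against 11.4 on the heterozygous one, so that probe set was well above the floor on both arrays. A test of Chrna4 against its partners is not possible with 1 array per genotype.

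Chrna7, whose product forms the alpha7 homomeric channel with high calcium permeability, stood at 0.21 (SD 0.54, higher in 4 of 7 probe sets). Its brightest probe set read 11.5 on the KO array against 11.3 on the heterozygous one, while the other 6 had values from 6.38 to 8.29. Chrna6, a subunit found chiefly in catecholamine neurons, was the highest nicotinic member at 0.21 (SD 0.33). It was also the 1 member of 43 with every probe set higher (4 of 4), against 2.46% of all genes. That share was not matched on the number of probe sets. The 4 used probe sets of Chrna6 read 6.15 against 6.12, 7.45 against 7.37, 6.58 against 6.24, and 7.56 against 6.81. Only 4 of its 10 probe sets were used, and with no floor 3 of 10 were lower and the difference was 0.06.

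Several subunit genes lie next to each other in the genome, by the order of genes in RefSeq. Chrna5, Chrna3 and Chrnb4, subunits of autonomic ganglion and habenular receptors, are neighbours. Chrnb4 stood at -0.17 (SD 0.39, 5 of 8 probe sets lower) beside Chrna5 at 0.06. Chrna3 had 2 probe sets at or above the floor, at 8.94 against 9.09 and 8.65 against 8.76, and all 9 of its probe sets were lower with no floor (median -0.29). With no floor Chrna5 stood at -0.35 and Chrnb4 at -0.23, so all 3 neighbours were then lower. Chrnb3, an accessory subunit, neighbours Chrna6 and stood at -0.07 with 2 of 3 probe sets lower. With no floor it stood at 0.07 beside Chrna6 at 0.06. Whether neighbours shared a direction thus depended on the floor.

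Chrna2 stood at -0.17 (SD 0.40, 6 of 9 probe sets lower). Chrna9 and Chrna10, which make the receptor of cochlear hair cells, stood at -0.17 and 0.06, with 5 and 6 of their 12 and 18 probe sets at or above the floor. With no floor these were -0.35 and -0.15. The 10 evaluated neuronal subunits had a median of -0.01, with 5 above 0 and 5 below. With no floor all 11 could be counted, with 3 above 0 and 8 below and a median of -0.15.

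Muscle subunits form the receptor of the neuromuscular junction and are known mainly from muscle. Their median levels (7.52 on the KO array, 7.33 on the heterozygous one) were yet above those of the neuronal subunits (7.05 and 6.97). A level above the floor therefore does not by itself show expression. Chrna1 was at -0.30, Chrnb1 at -0.22, Chrnd at -0.13, Chrne at -0.06 and Chrng at -0.02, so all 5 were below 0 with a median of -0.13, though 2 were above the median of all genes. With no floor Chrnd stood at 0.01 and Chrng at 0.15. Single probe sets of these genes were far apart. A Chrne probe set read 4.40 on the KO array against 8.09 on the heterozygous one, the lowest difference of any member probe set at -3.70, while the other 8 ran from -0.37 to 0.66. The probe set at -3.70 passed the floor through the heterozygous array alone. Chrnb1 held 1 probe set at -1.55 and others at 1.31 and 1.65. The SD over probe sets was 1.31 for Chrne and 1.19 for Chrnb1, above that of Chrna4 (0.98), and 0.50 to 0.67 for the other 3.

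Muscarinic receptors are the G protein-coupled acetylcholine receptors. Of 5 genes 4 were evaluated, with a median of -0.07, 2 above 0 and 2 below, each on 3 to 5 probe sets; the median turned above 0 in 4 of 9 alternatives. Chrm2, a Gi-coupled receptor and often a presynaptic autoreceptor, was lowest at -0.23 (SD 0.46), with probe sets of 6.43 on the KO array against 7.10, 8.15 against 8.39 and 7.01 against 6.75. With no floor it stood at 0.02, above Chrm1. Chrm4, also Gi-coupled, was highest at 0.11 (SD 0.76), with 6.98 against 7.15, 8.13 against 8.03 and 8.11 against 6.85. In both genes the probe sets pointed both ways.

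The Gq-coupled muscarinic receptors were mixed. Chrm1 stood at -0.19 (SD 0.28, 4 of 5 probe sets lower) its brightest probe set reading 9.89 against 10.3. Chrm5 stood at 0.05 (SD 0.89), and its brightest probe set went against the gene median, at 8.70 against 10.1 (-1.44). Chrm3, the receptor of smooth muscle and glands that neurons use too, had probe sets of 6.99 against 8.12 and 7.69 against 7.44 at or above the floor, so its 2 usable values pointed opposite ways.

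Serotonin receptors were the family with most members above 0. Of 14 genes 13 were evaluated, with a median of 0.06, 9 above 0 and 4 below (30.8%, against 65.2% of all genes). Probe sets followed in part, with 41 of 84 (48.8%) below 0 against 57.4% over all named probe sets. With no floor 8 of 14 genes were above 0 and 6 below, with a median of 0.04, and Htr1f, Htr4 and Htr7 turned direction. With the mean over probe sets the family median was -0.05, so the direction of the family median depends on the summary used. No serotonin receptor was called.

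Htr2b, a Gq-coupled receptor better known from heart and gut, was the highest member of all at 0.47 (SD 1.31, levels of 8.07 and 7.61), with 7 of 10 probe sets higher. Its largest differences were 10.4 on the KO array against 6.89 on the heterozygous one (3.54), 10.1 against 8.78 (1.29) and 8.24 against 7.08 (1.15). Against these, 1 probe set read 6.25 against 7.82 (-1.57). The probe sets of this gene disagreed by more than 2-fold in both directions, which was true of 5 members in all.

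Htr2a, the Gq-coupled receptor of cortical neurons, was the lowest of the family at -0.41 (SD 1.28, levels of 7.23 and 7.60), with 9 of 12 probe sets lower. A pair of probe sets carried the largest differences, at 4.34 on the KO array against 7.77 (-3.42) and 5.63 against 8.42 (-2.79), both with the KO value under the floor. Both passed the floor through the heterozygous array alone. The other 10 ran from -0.83 (8.39 against 9.22) to 1.26 (7.27 against 6.01). Htr2c, the receptor through which serotonin excites POMC neurons, stood at 0.13 (SD 0.76) with 5 of 7 probe sets higher. It had 20 probe sets, the most of any member, of which 13 were under the floor. The 3 paralogs of the 5-HT2 group thus lay on both sides of 0.

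Among Gi-coupled serotonin receptors, Htr1b, which inhibits AgRP neurons, differed by 0.06 (SD 0.36). Its 3 probe sets read 8.37 on the KO array against 8.43, 9.28 against 9.22, and 7.28 against 6.67. All 3 were above the floor on both arrays, and they did not share a direction. Htr1a, the somatodendritic autoreceptor of serotonin neurons and a receptor of many forebrain neurons, stood at 0.12 (SD 0.92), with probe sets from -1.86 (7.17 against 9.02) to 1.10 (8.64 against 7.55). Htr1f stood at -0.24 (SD 0.97), with 3 of 5 probe sets lower, and at 0.26 with no floor, so its direction depended on the floor. Htr1d had 2 usable probe sets, 8.25 against 8.77 and 7.28 against 6.63, that pointed opposite ways.

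Htr5a stood at 0.11 (SD 0.86) and Htr5b at -0.23 (SD 0.23), the latter with 3 of 3 probe sets lower. The Gs-coupled receptors were Htr4 at 0.00 (SD 0.35, 5 of 9 probe sets higher), Htr6 at 0.31 (SD 0.82, 2 of 3) and Htr7 at 0.12 (SD 0.61, 2 of 3). Htr7 was near the floor, with levels of 6.24 on the KO array against 6.54 on the heterozygous one, and stood at -0.41 with no floor. Htr3a and Htr3b, neighbouring genes for the subunits of the serotonin-gated channel, stood at 0.05 (SD 0.31) and -0.10 (SD 0.45). Neither of these 2 subunit genes had a used probe set 2-fold apart.

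Adrenergic receptors bind adrenaline and noradrenaline, the latter released in the arcuate nucleus by hindbrain axons. Adra1b, the Gq-coupled alpha-1B receptor, stood at -0.28 (SD 0.15), with 6 of 6 probe sets lower. These read 6.90 on the KO array against 7.43, 9.75 against 10.1, 7.32 against 7.62, 7.18 against 7.43, 12.8 against 13.0 and 7.51 against 7.61. Each pair was close, and all 6 pointed the same way. Only 6 of the 11 Adra1b probe sets were used. With no floor 9 were lower and 2 higher, and the difference was -0.26. Over all genes 5.15% had every probe set lower, and 4 of the 43 members did, which were Adra1b, Chrna4, Hrh2 and Htr5b. These shares were not matched on the number of used probe sets, with a median of 6 per member against 10 over all genes. Adra2c, the Gi-coupled alpha-2C receptor, differed by 0.04 (SD 0.36, 5 of 6 probe sets higher, with values from 5.93 to 8.62).

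Dopamine receptors divide into Gs-coupled D1 and D5 and Gi-coupled D2, D3 and D4. Of the 5 genes 4 were below 0, with a family median of -0.17, beside 65.2% below 0 and a median of -0.11 over all genes. Of their probe sets 23 of 34 (67.6%) were below 0, against 57.4% over all named probe sets. Drd1a (the current symbol is Drd1) was lowest at -0.61 (SD 0.58). It rested on 3 probe sets, at 6.33 on the KO array against 7.06, 6.08 against 6.68, and 6.35 against 6.02, all near the floor. With all 4 of its probe sets the difference was -0.17.

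Drd2, the target of most antipsychotic drugs, stood at -0.28 (SD 0.51), with 6 of 8 probe sets lower, from 7.22 against 8.24 (-1.02) to 7.07 against 6.37 (0.70). Drd4 stood at -0.14 (SD 0.41), with 8 of 10 probe sets lower, its brightest reading 10.2 against 10.6. Drd3 stood at -0.17 (SD 0.57). Drd5 was the highest dopamine receptor at 0.07 (SD 0.20), with probe sets of 7.75 against 7.85, 8.09 against 8.13, 7.16 against 7.18, 8.78 against 8.71, 6.92 against 6.69, 7.75 against 7.47 and 6.17 against 5.72. Thus 3 of the 7 were lower and 4 higher.

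Histamine comes from neurons of the tuberomammillary nucleus, and histamine receptors in the hypothalamus take part in wakefulness and in restraint of feeding. Hrh3, the Gi-coupled H3 receptor that acts as an autoreceptor and on terminals of other neurons, was the lowest of the family at -0.53 (SD 0.65, 1.44-fold lower), with 10 of 12 probe sets lower. Its 4 brightest probe sets read 11.1 on the KO array against 11.2, 10.8 against 11.7, 9.79 against 10.7, and 9.47 against 10.1, so the bright probe sets were all lower, by 0.09 to 0.92. The dimmer ones ran from -1.38 (6.95 against 8.33) to 0.99 (8.21 against 7.22). Together with Chrna4 it had the lowest difference of the 7 members with at least 10 probe sets.

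Hrh1, the Gq-coupled H1 receptor, through which antihistamines cause drowsiness, stood at 0.28 (SD 0.42), with 4 of 5 probe sets higher. Its probe sets read 8.13 on the KO array against 8.25, 9.75 against 9.67, 7.19 against 6.91, 7.93 against 7.40, and 6.77 against 5.80. Hrh2, the Gs-coupled H2 receptor of acid secretion, stood at -0.26 with the smallest SD of any member (0.06), and its 4 probe sets read 5.83 against 6.13, 7.57 against 7.87, 6.40 against 6.62, and 9.28 against 9.47. The 2 receptors lay on opposite sides of 0.

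Hrh4, the H4 receptor known from immune cells, was the highest histamine receptor at 0.35 and had the largest SD of any member (2.07). Its 5 probe sets read 8.82 on the KO array against 4.07 on the heterozygous one, 8.86 against 8.51, 7.29 against 7.30, 6.49 against 6.80, and 7.53 with a difference of 1.54. The first of these is the largest difference of any member probe set at 4.75, and it passed the floor through the KO array alone. A further probe set under the floor read 7.07 against 4.33, and with no floor the gene stood at 0.09 over 9 probe sets. The microglia markers, set beside it because the receptor is known from immune cells, had a median of -0.11 over 7 genes, with 2 above 0, and their part in the Hrh4 value was not tested.

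**Figure D3:**
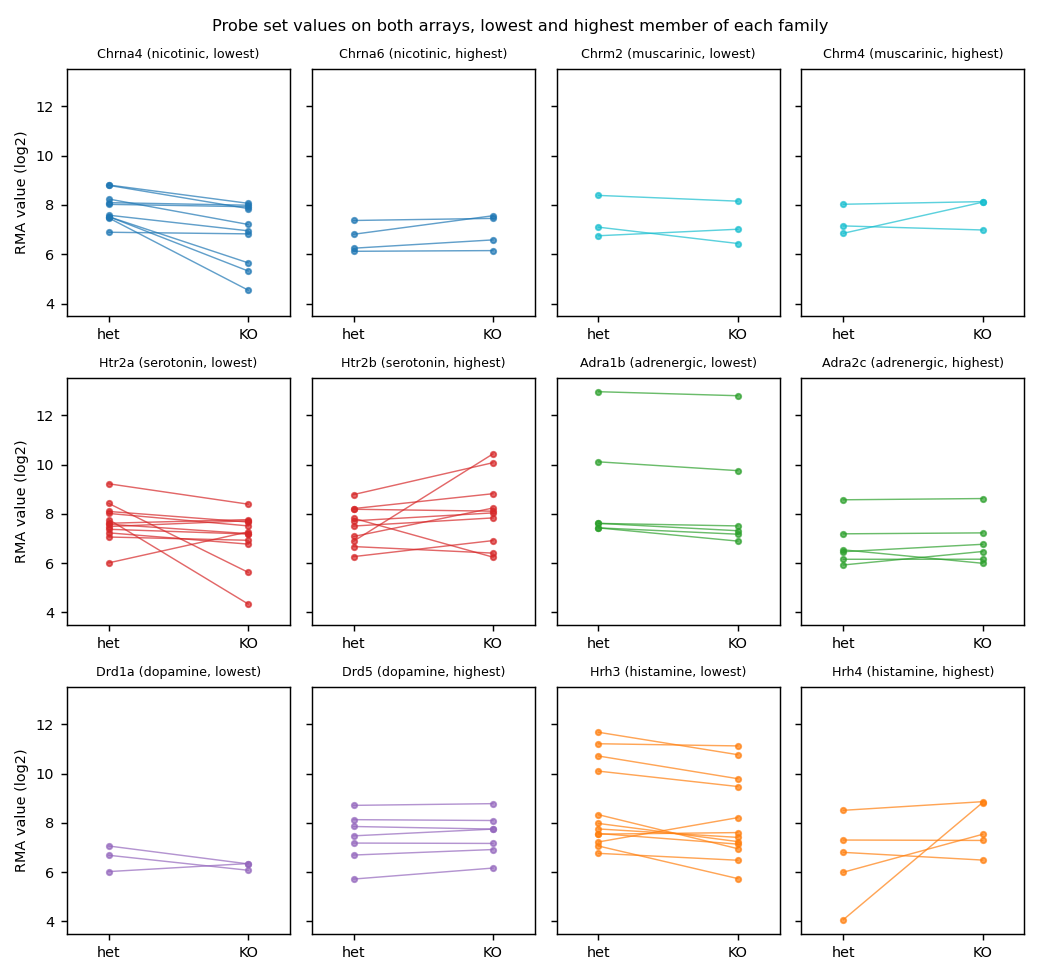
RMA values (log2) on the heterozygous (left) and KO (right) array for each probe set at or above the floor, joined by lines, in the lowest and the highest member of each of the 6 families. All 10 Chrna4 lines and all 6 Adra1b lines go down by unequal amounts, while Htr2a, Htr2b, Hrh3 and Hrh4 hold lines in both directions.

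Grouped by signalling, in groups drawn up after the values were seen, the receptors overlapped. The 7 evaluated Gq-coupled receptors had a median of 0.05 (range -0.41 to 0.47), the 13 Gi-coupled receptors -0.14 (range -0.53 to 0.35) and the 6 Gs-coupled receptors 0.04 (range -0.61 to 0.31). With no floor the medians were -0.01, 0.00 and -0.12. The medians differed by less than the range within each group. Of the evaluated Gi-coupled receptors 7 were below 0 and 6 above, with the floor.

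Single probe sets that far apart were a smaller share among the members than over all named genes. Of 284 probe sets 18 (6.34%) had KO values 2-fold or more above the heterozygous ones and 19 (6.69%) lay as far below, against 9.24% and 11.0% of all 215976 such probe sets. At least 4-fold apart were 3 higher and 5 lower. These 37 probe sets lay in 21 genes, of which Chrna4 held 4, all lower, and Htr2b 4, of which 3 were higher. Of the 43 evaluated members 23 had no probe set 2-fold apart. No test was made of these shares, since probe sets of a gene share a transcript.

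The enzymes and transporters of the ligands were mostly lower. Of 26 genes in this list 22 were evaluated, with a median of -0.21 and 19 below 0 (86.4% against 65.2% of all genes). The 2-fold rule called 0 of them higher and 2 lower. Ddc, the decarboxylase that makes dopamine and serotonin from their precursors, had the lowest value, -1.55 (SD 0.95, 12 of 12 probe sets lower, levels of 7.11 and 8.55). Gch1, which starts the synthesis of the tetrahydrobiopterin cofactor of the hydroxylases, was at -1.19 (SD 1.25, 8 of 10). Th, the tyrosine hydroxylase of catecholamine neurons, stood at -0.19, the histidine decarboxylase gene Hdc at -0.11 and the acetylcholine-forming enzyme gene Chat at -0.23, none past the rule. Ache, which breaks acetylcholine down, was at -0.53 with 7 of 7 probe sets lower.

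Genes that carry the receptor signal or assemble the receptors were all evaluated (44 of 44), with a median of -0.14 and 0 past the 2-fold rule in either direction. Of these 11 were above 0 and 33 below, or 75% below against 65.2% of all genes. The lowest was Lynx1, a membrane-tethered modulator of nicotinic receptors, at -0.64 (SD 0.40, 5 of 6 probe sets lower). The highest was Rgs7, which speeds the switching off of Gi and Go proteins, at 0.83 (SD 1.16, 14 of 20 higher, levels of 8.65 and 8.47), or at 0.37 where the 75th percentile served as floor. Rgs2, an inhibitor of Gq signalling, stood at 0.60 with 8 of 8 probe sets higher, and Rgs4 at 0.44 with 6 of 7. Rgs9, the other Rgs gene of the list, went the other way, at -0.10 with 19 of 32 probe sets lower. These regulators were named after their values were seen. Ric3, a chaperone of nicotinic receptor assembly, was at -0.30 (SD 1.37).

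**Figure D4:**
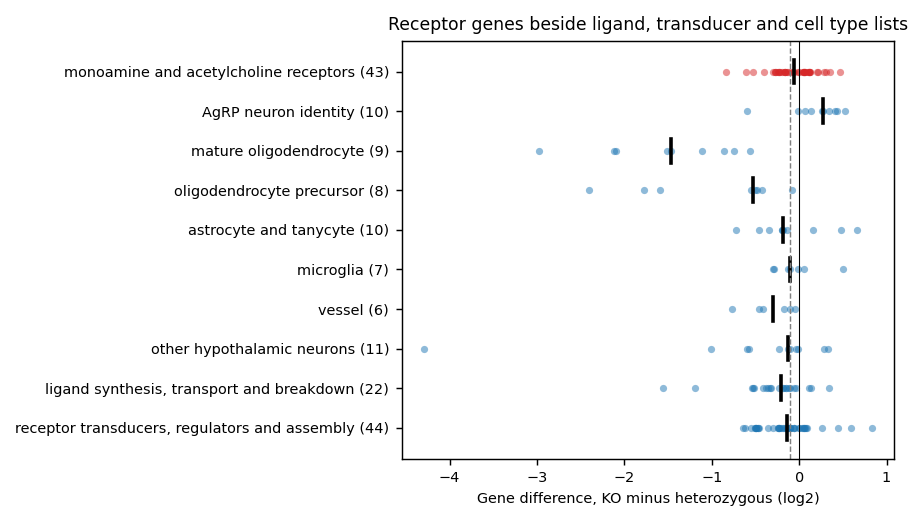
Gene differences (KO minus heterozygous, log2) for the receptor genes and for the ligand, transducer and cell type lists; each circle is a gene, black bars are list medians, the dashed line is the median of all genes (-0.11) and numbers in brackets are evaluated genes. The receptor genes run from -0.84 to 0.47. Below -1 lie Ddc and Gch1 of the ligand list, 6 mature oligodendrocyte genes, 3 oligodendrocyte precursor genes, and Slc17a6 and Oxt of other hypothalamic neurons.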

How the data were processed

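Per the labels' protocols, Trizol-extracted RNA of FACS-sorted AgRP neurons was labelled by a Nugen protocol, on 1 array per genotype. The authors deposited 1 value per probe set and array (1235936 probe sets). Per the submitters' processing notes these were made with RMA and Partek; the sources used here give no versions, no genome build and no annotation release. The deposited values were taken to be log2 from their range (2.55 to 14.1 on the KO array, median 5.85 on both). Symbols came from the platform annotation (318760 probe sets with 1 symbol); 45 of 46 member symbols are current in RefSeq (GRCm38.p6) and 1 is older. Precision is limited by having so few arrays.

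Floor, gene summary and 2-fold rule are as given in the report. Named in full, by rule, are members past the 2-fold rule and the highest and lowest member of each family; any other member could be named. From the ligand and transducer lists the genes past the rule, or else the highest and lowest, were taken. The choice of any others followed sight of their values. The members and lists were chosen with earlier results of these data known. Alternatives were omission of the floor, the 75th percentile as floor, means in place of medians, a minimum of 1 or of 5 probe sets, removal of the trend on level in 50 bins, centring, repeated quantile normalisation, probe sets with several symbols, a 1.5-fold rule and no agreement rule. The summary was tested on simulated data. Python 3.11.15, numpy 2.4.6, pandas 2.3.3 and matplotlib 3.10.9 were used.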

Additional observations from a re-analysis of the deposited data

How the results depend on the processing

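No member was called higher under any of 11 alternatives, and 9 of 11 also called 0 members lower; the mean over probe sets and the 1.5-fold rule each called 1 member lower, Chrna4 (-1.06 with the mean, because its 3 lowest probe sets then weigh more). Chrna4 ran from -1.06 to -0.73 over 9 alternatives and kept its direction, as did Hrh3 (-0.63 to -0.42), Htr2a (-0.63 to -0.30) and Htr2b (0.47 to 0.60). The members' median ran from -0.11 to 0.05, and it turned above 0 in 2 of 9 alternatives. It was 0.01 with the trend on level removed, which subtracts from each probe set the median difference of its bin of level. It was 0.05 when differences were centred on the median of all genes, which adds 0.11 to every gene by construction. Over all genes, at least 1 probe set per gene gave 338 higher and 329 lower, of 20521 genes evaluated, and the 1.5-fold rule gave 545 higher and 815 lower. Drd1a moved from -0.61 to -0.17 and Hrh4 from 0.35 to 0.09 with no floor, and Hrh4 was at 1.26 with the mean; the sizes of genes with few or discordant probe sets are therefore uncertain. No paired analysis was possible because each genotype has 1 array. Leaving out an array was not possible for the same reason. Signal limits the values of dim probe sets, of which 193 of the members' 477 lay under the floor.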
